A study of Homo sapiens with 6 samples.

Results

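IFIT1, IFIT2, IFIT3 and IFIT5 and OAS1, OAS2, OAS3 and OASL are 2 families of interferon-stimulated antiviral genes. They were chosen here by gene symbol, with earlier results of these data known. All 8 symbols were found among the 58884 genes of the table, and all 8 passed the expression filter that 16859 genes passed. OAS2 passed it through the control libraries alone. IFIT proteins are built from tetratricopeptide repeats and bind viral RNA whose end lacks the marks of a host messenger RNA cap, which keeps such RNA from being translated. OAS enzymes sense double-stranded RNA and make short oligoadenylates that act as a second messenger and lead to the decay of RNA. Both families are known as targets of the interferon-activated transcription complex that includes STAT2 and IRF9 and are transcribed at low levels in many cells without interferon.

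The samples were 6 RNA libraries of HL-60, a long-established cell line from a human acute myeloid leukemia. Its cells resemble promyelocytes and carry a mutated RAS gene. A lentiviral vector carried a short hairpin RNA (shRNA) against EZH2, the enzyme through which the Polycomb complex PRC2 methylates histone H3, in 3 libraries (titled 1, 3 and 4), and a scrambled control shRNA in 3 libraries (titled 3, 4 and 5). Both groups thus carry a lentiviral vector, and both were selected with puromycin, which was removed 2 days before the experiment, and were kept for 24 hours in 0.05% fetal bovine serum. The comparison asks how expression differs in RAS-mutated cells when EZH2 is reduced. The design text speaks of 3 knock-out cell lines per arm, whereas the labels of the samples speak of stable knockdown cells and name no separate lines, clones or pools. The p-values therefore reflect variation between libraries only, and part of it may be technical. In bulk RNA, fewer cells expressing a gene and less RNA per cell cannot be told apart.

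Total counts ranged from 39717343 to 85074624 per library. EZH2 mRNA was 147.6 to 150.5 CPM (counts relative to library size after TMM scaling) in the control libraries and 77.3 to 83.2 CPM in the EZH2 shRNA libraries (log2 fold change -0.90, SE 0.04). Of 7 promyelocyte markers 6 were tested, of which 3 were higher, 1 lower and 2 without a call. Over all genes tested, 23.8% were called higher and 22.9% lower, which stands beside this and the other marker counts. PRTN3, proteinase 3, went from 21.8 to 96.5 CPM (log2 fold change 2.14), AZU1 was at 0.69, MYB at 0.21 and CTSG at -0.22, while MPO, the main peroxidase of the lineage, had 9795 CPM in controls and 9416 CPM with EZH2 shRNA (-0.06). ELANE, neutrophil elastase, had only 32 counts in all 6 libraries. All 5 tested of 7 eosinophil markers were higher with EZH2 shRNA, with a median log2 fold change of 4.21. IL5RA went from 0.211 to 17.8 CPM, CLC from 1.08 to 86.5 CPM, EPX from 1.36 to 25.0 CPM and PRG2 from 3.31 to 14.2 CPM. RNASE2, which makes up most of the summed level (136 to 138 CPM in controls, 327 to 349 CPM with EZH2 shRNA), went from 130.6 to 192.5 CPM. CCR3 and SIGLEC8 had 12 and 9 counts in all. Of 5 B-cell markers 1, PAX5, was higher (17.3 to 36.8 CPM), with MS4A1 at 0 counts. Of 7 monocyte and macrophage markers 3 were tested, with FCGR1A higher (8.23 to 20.3 CPM), CSF1R higher (0.105 to 0.870 CPM) and LYZ lower (46.2 to 32.0 CPM), so that their summed level of 54.0 to 55.5 CPM in controls and 50.9 to 56.4 CPM with EZH2 shRNA combines opposite changes. None of 2 measured mature neutrophil markers and none of 1 measured T and NK cell marker passed the test. Lower were 2 of 2 measured plasmacytoid dendritic cell markers, TCF4 (log2 fold change -0.23) and the weakly expressed IL3RA (0.391 to 0.141 CPM). CLEC4C and GZMB had 0 counts. The part of these shifts in the values that follow was not tested.

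All 8 genes fell with EZH2 shRNA, and in all 8 every EZH2 shRNA library lay below every control library. Because OAS2 passed the expression filter through the control libraries alone, a lower call for it was close to fixed in advance. Among all genes tested, 22.9% were called lower (edgeR quasi-likelihood test, adjusted p under 0.05 over 16859 genes), 23.8% were called higher, and 27.0% had every EZH2 shRNA library below every control library. The size of the change set the members apart from one another. OAS2, OASL, IFIT2, IFIT1, IFIT3, IFIT5 and OAS1 fell by at least 2-fold, whereas OAS3 did not. On log2(FPKM + 1), a scale that compresses low values, IFIT5, OAS1 and OAS2 were also under 2-fold (-0.45, -0.52 and -0.28). A fall of at least 2-fold was called for 2.18% of all genes tested. The median log2 fold change was -3.27 over the 8 genes, -3.27 over the IFIT genes and -3.21 over the OAS family, against 0.01 over all genes tested. The IFIT values lay close together, between -3.66 and -2.77, and the OAS family spread from -5.32 to -0.60.

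**Figure D1:**
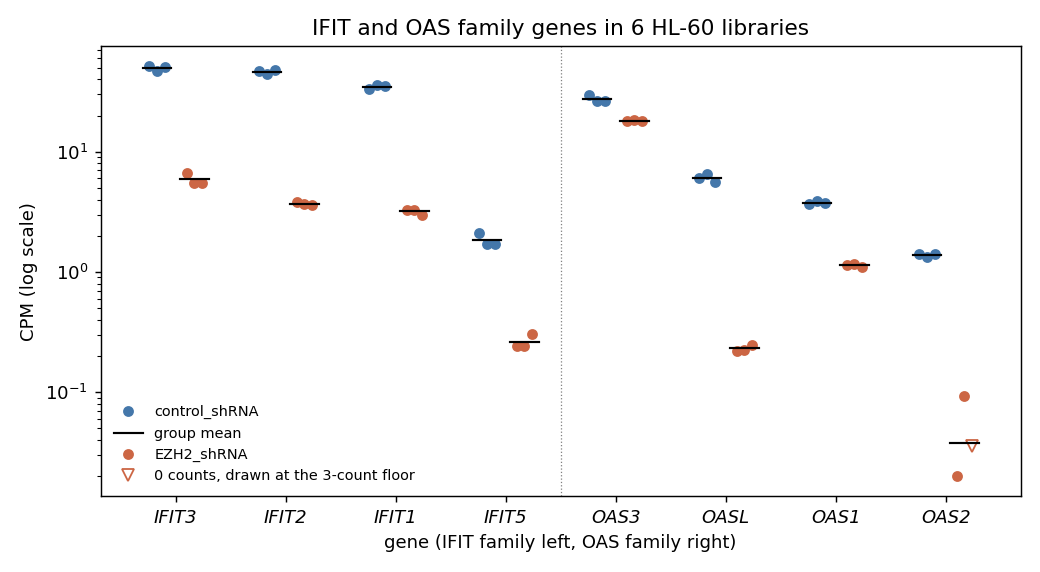
CPM on a log scale for each of the 8 genes, with 1 point per library, control shRNA in blue and EZH2 shRNA in orange, and black lines for group means (n = 3 each). The open triangle is the OAS2 library with 0 counts, drawn at its floor of 3 counts (0.0353 CPM). The groups separate for every gene, least so for OAS3.

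IFIT2, whose protein forms complexes with IFIT1 and IFIT3 and is linked to apoptosis, lies on GRCh38 chromosome 10 from 89283694 to 89309271 on the plus strand. IFIT2 was at 47.0, 44.1 and 48.1 CPM in control libraries 3, 4 and 5 and at 3.80, 3.66 and 3.6 CPM in EZH2 shRNA libraries 1, 3 and 4. The libraries of each group lay close together, and the level with EZH2 shRNA was 7.93% of control. This 12.6-fold fall was -3.66 on the log2 scale (SE 0.07, edgeR adjusted p = 8.5e-16). Only 14 of the 16859 genes tested had a lower fold change.

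IFIT1, the family's main sensor of incorrectly capped RNA, lies at 89392546 to 89406487 of the same chromosome and strand. IFIT1 had 33.1, 36.2 and 35.4 CPM in the control libraries and 3.29, 3.28 and 3.0 CPM in the EZH2 shRNA libraries. It fell to 9.10% of control, close to IFIT2 (log2 fold change -3.46, SE 0.08, edgeR adjusted p = 3.35e-15).

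IFIT3, which stabilises IFIT1 and strengthens its RNA binding, lies at 89327997 to 89340971 on the plus strand. IFIT3 had the highest control level of the 8, with 51.4, 46.8 and 50.4 CPM, and 6.63, 5.51 and 5.54 CPM with EZH2 shRNA. EZH2 shRNA library 1 was the highest of its group and still below all controls. The remaining level was 11.8% of control (log2 fold change -3.08, SE 0.07, edgeR adjusted p = 8.73e-15).

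IFIT5, which binds RNA ends as a monomer, lies at 89414568 to 89420997 on the plus strand and was expressed weakly. Its counts were 84, 89 and 73 in the control libraries and 12, 13 and 26 in the EZH2 shRNA libraries, of which the last was the most deeply sequenced. In CPM these were 2.13, 1.71 and 1.72 against 0.241, 0.243 and 0.306. The groups did not overlap, and 14.7% of the control level remained (log2 fold change -2.77, SE 0.25, edgeR adjusted p = 1.06e-07).

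The RefSeq promoter table (GRCh38.p14) matched 5 of the 8 genes (IFIT1, IFIT3, IFIT5, OAS1 and OAS3) and had no entry for IFIT2, OAS2 and OASL. The interferon-stimulated response element is the DNA motif that this complex is known to bind, and its core was searched as GAAANNGAAA on both strands. A variant with 1 base between the repeats, GAAANGAAA, was searched in the same way. The bases before the RefSeq start of 3 IFIT genes are shown because these genes fell together, and those of IFIT1B, a weakly expressed relative in the same cluster, for comparison. They cover chr10:89392423-89392622 for IFIT1, chr10:89327797-89327996 for IFIT3, chr10:89414368-89414567 for IFIT5 and chr10:89377856-89378055 for IFIT1B, each 200 bases on the plus strand. Capitals mark a match to either motif.
IFIT1: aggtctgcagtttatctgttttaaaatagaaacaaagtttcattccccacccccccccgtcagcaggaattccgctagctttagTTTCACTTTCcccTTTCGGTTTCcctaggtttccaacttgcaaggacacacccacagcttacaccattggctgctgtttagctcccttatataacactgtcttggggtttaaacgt
IFIT3: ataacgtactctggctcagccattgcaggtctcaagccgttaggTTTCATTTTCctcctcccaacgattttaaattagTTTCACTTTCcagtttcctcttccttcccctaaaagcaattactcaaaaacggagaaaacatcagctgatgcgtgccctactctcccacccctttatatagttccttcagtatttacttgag
IFIT5: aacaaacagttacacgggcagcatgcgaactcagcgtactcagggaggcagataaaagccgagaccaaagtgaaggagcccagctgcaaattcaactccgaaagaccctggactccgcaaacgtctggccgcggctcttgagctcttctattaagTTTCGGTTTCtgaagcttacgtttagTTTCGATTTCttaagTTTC
IFIT1B: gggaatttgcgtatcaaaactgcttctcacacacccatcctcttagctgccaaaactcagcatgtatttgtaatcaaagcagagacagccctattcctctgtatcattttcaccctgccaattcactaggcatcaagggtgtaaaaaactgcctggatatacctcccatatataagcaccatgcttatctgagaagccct
The IFIT1 window held GAAANNGAAA 2 times, read on the minus strand, at bases -116 to -107 and -103 to -94 from the start. The IFIT3 window held it 2 times, at -156 to -147 and -122 to -113, and a second RefSeq start of IFIT3 also had 2 matches, 1 of them overlapping a match to GAAANGAAA. IFIT5 had 3 matches, at -45 to -36, -19 to -10 and -4 to 5, so the last of them runs past the printed end. The IFIT1B window held 0 matches to either motif. IFIT1B was nonetheless lower too, with 6, 14 and 14 counts in the control libraries and 0 in each EZH2 shRNA library. These counts are few and were not tested, and IFIT1B does not stand for a gene that kept its level. Of 35116 RefSeq promoter windows of 300 bases, 3.57% held GAAANNGAAA, 3.12% GAAANGAAA and 6.40% at least 1 of them. A match describes letters only and was not tested for binding.

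OAS2, a synthetase with a pair of OAS units, lies on GRCh38 chromosome 12 from 112978395 to 113011723 on the plus strand. OAS2 had 56, 69 and 60 counts in control libraries 3, 4 and 5 and 1, 5 and 0 counts in EZH2 shRNA libraries 1, 3 and 4. The controls were at 1.32 to 1.42 CPM, and with EZH2 shRNA the gene was near the limit of detection. The fit put it at -5.32 on the log2 scale (SE 0.50, edgeR adjusted p = 2.37e-07). Its size rests on few reads: it was -7.16 without EZH2 shRNA library 3 and -4.52 without EZH2 shRNA library 4. Summed over libraries, 185 control counts stood against 6, a 43.7-fold lower count per total with an exact 95% counting interval of 19.7 to 121. Such an interval covers counting error only, since reads that carry no molecular identifier can be copies of 1 molecule.

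OASL is an OAS relative without synthetase activity that carries ubiquitin-like domains and is known to enhance signalling by the RNA sensor RIG-I. OASL lies at 121019111 to 121039242 of chromosome 12 on the minus strand, 8007 kb from the end of OAS2. OASL was at 6.10, 6.49 and 5.66 CPM in the control libraries and 0.221, 0.224 and 0.247 CPM in the EZH2 shRNA libraries. It fell to 3.87% of control with little spread in either group (log2 fold change -4.69, SE 0.18, edgeR adjusted p = 3.64e-12).

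OAS1, the smallest of the synthetases, lies at 112906783 to 112933222 on the plus strand. OAS1 had 3.67, 3.88 and 3.75 CPM in the control libraries and 1.15, 1.16 and 1.11 CPM in the EZH2 shRNA libraries. Its fall to 30.1% of control was smaller than that of any IFIT gene (log2 fold change -1.73, SE 0.15, edgeR adjusted p = 6.14e-08).

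OAS3, a synthetase with 3 OAS units, lies between OAS1 and OAS2 at 112938444 to 112973251. OAS3 had 29.9, 26.5 and 26.4 CPM in the control libraries and 18.1, 18.3 and 18.0 CPM in the EZH2 shRNA libraries. The EZH2 shRNA libraries differed little from each other, and 65.8% of the control level remained (log2 fold change -0.60, SE 0.06, edgeR adjusted p = 7.11e-07). In the order of fold changes from the lowest, OAS3 was at position 1119 of 16859, against position 92 for OAS1 and positions 5 to 39 for the other 6.

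The windows before the RefSeq starts of the neighbouring genes OAS1 and OAS3 are shown because the genes fell by different amounts. They cover chr12:112906762-112906961 for OAS1 and chr12:112938274-112938473 for OAS3, both on the plus strand, with matches in capitals as above.
OAS1: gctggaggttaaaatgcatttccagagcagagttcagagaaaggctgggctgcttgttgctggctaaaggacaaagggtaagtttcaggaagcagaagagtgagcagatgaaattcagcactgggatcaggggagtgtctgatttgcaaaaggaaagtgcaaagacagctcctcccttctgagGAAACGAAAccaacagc
OAS3: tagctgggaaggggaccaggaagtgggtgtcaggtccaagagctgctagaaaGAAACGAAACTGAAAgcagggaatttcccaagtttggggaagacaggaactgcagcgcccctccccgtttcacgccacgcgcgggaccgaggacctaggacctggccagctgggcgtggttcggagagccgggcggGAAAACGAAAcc
OAS1 held no GAAANNGAAA and had 1 match to GAAANGAAA, at -17 to -9. OAS3, the member that fell least, had 2 matches to GAAANNGAAA, at -143 to -134 and -12 to -3, and 1 to GAAANGAAA at -148 to -140, which overlaps the first. In the file, the genes OAS1, OAS3 and IFIT1 begin 179, 30 and 77 bases before the RefSeq start, and IFIT3 and IFIT5 begin at it.

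Differences between members were measured within each library as a difference in log2 CPM (prior count 2), in which library scaling cancels. Of 13 comparisons, 6 among IFIT genes, 6 in the OAS family and 1 of the family means, 11 had groups that did not overlap. Each of the 11 had an exact two-sided permutation p of 0.1, the smallest that 3 against 3 can give, and an adjusted exact p of 0.118, so none could pass a threshold of 0.05. The clearest contrast was OAS3 over OASL, which was 2.17 ± 0.14 in controls and 6.08 ± 0.09 with EZH2 shRNA (SD, n = 3 each), a difference in log2 fold change of 3.91 (SE 0.09). OAS1 over OASL differed by 2.82 (SE 0.08). Between the adjacent genes OAS1 and OAS3 the difference was -1.09 (SE 0.08), so OAS1 fell further.

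Among IFIT genes the differences were smaller. IFIT2 minus IFIT5 was -0.99 (SE 0.15), IFIT2 minus IFIT3 was -0.57 (SE 0.07) and IFIT1 minus IFIT2 was 0.21 (SE 0.07), which puts the fall of IFIT2 ahead of the other 3. IFIT3 minus IFIT5 was -0.42 (SE 0.18), with overlapping groups (exact permutation p = 0.2, adjusted 0.217). For OAS2 minus OASL the groups also overlapped, at 0.07 (SE 0.57, exact permutation p = 0.9, adjusted 0.9), where OAS2 has few reads. Contrasts with the weakly expressed genes depended on the scale. On log2(FPKM + 0.1) IFIT2 minus IFIT5 was -1.76, IFIT1 minus IFIT5 was -1.52 and IFIT3 minus IFIT5 was -1.27. On log2 CPM, IFIT3 minus IFIT5 was -0.27 without EZH2 shRNA library 4, against -0.42 with all libraries. OAS2 minus OASL was -0.85 with a prior count of 0.5 and 1.87 on log2(FPKM + 0.1), so these genes were not ordered. The mean of the 4 IFIT genes fell by only slightly more than the mean of the OAS family, with a difference of -0.39 (SE 0.15). That value was -0.11 with a prior count of 0.5 and -1.14 on log2(FPKM + 0.1), so the contrast between families depends on how low values are treated.

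Levels of different genes were compared on FPKM, the authors' deposited values per kilobase of gene, scaled for library depth, which are rescaled counts. In the control libraries the order was the same in all 3: IFIT3 at 19.5 ± 0.978 FPKM, IFIT2 at 11.4 ± 0.507, IFIT1 at 7.55 ± 0.342, OAS3 at 3.37 ± 0.254, OASL at 1.72 ± 0.118, OAS1 at 0.760 ± 0.0199, IFIT5 at 0.459 ± 0.0600 and OAS2 at 0.221 ± 0.00864 FPKM (SD, n = 3). No 2 neighbours in that order overlapped. With EZH2 shRNA the order changed. IFIT3 at 2.30 ± 0.246 FPKM and OAS3 at 2.21 ± 0.0246 FPKM then overlapped at the top, and OAS3 was first in 2 of 3 libraries. IFIT2 at 0.898 ± 0.0231, IFIT1 at 0.687 ± 0.0358 and OAS1 at 0.228 ± 0.00546 FPKM followed without overlap. OASL at 0.0651 ± 0.00407 and IFIT5 at 0.0649 ± 0.00914 FPKM could not be ordered, and OAS2 was last at 0.00600 ± 0.00780 FPKM.

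The summed level of the 8 genes was 44.9 ± 1.26 FPKM in controls and 6.46 ± 0.280 FPKM with EZH2 shRNA, 6.96-fold lower. The IFIT sum fell from 38.8 ± 1.23 to 3.95 ± 0.282 FPKM and the OAS family sum from 6.08 ± 0.287 to 2.51 ± 0.0348 FPKM, ratios of 9.83 and 2.43. IFIT genes thereby went from 86.0 to 87.2% of the summed level to 60.0 to 63.1%. OAS3 alone went from 7.08 to 8.0% of the sum to 32.5 to 35.1%, and from 53.3 to 57.6% of the OAS family to 87.8 to 88.2%. The control level was only weakly related to the fold change: across the 8 genes, which share the same 6 libraries, the correlation of control log2 FPKM with log2 fold change was 0.19 (Pearson) and 0.12 (Spearman), given as a description.

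**Figure D2:**
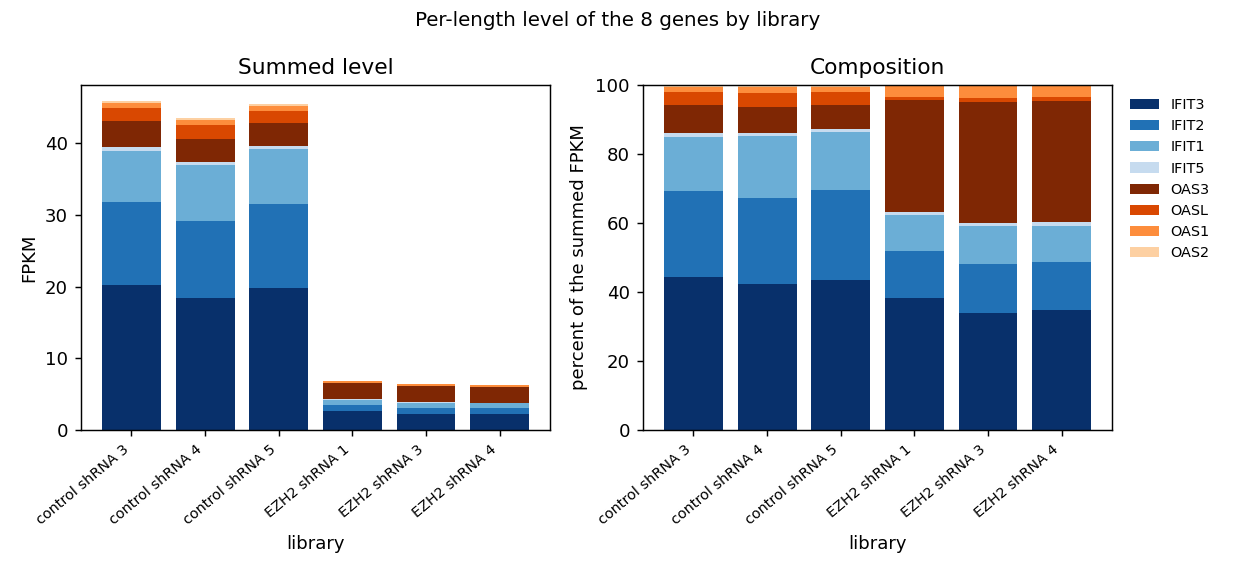
Stacked bars of deposited FPKM for the 8 genes in each library, as FPKM on the left and as a percent of their sum on the right, with IFIT genes in blue and the OAS family in orange and brown. The sums drop from 43.5 to 45.9 FPKM in controls to 6.24 to 6.77 FPKM with EZH2 shRNA, while the OAS3 segment widens to 32.5 to 35.1% of the sum.

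The 4 IFIT genes lie within 137.3 kb on the plus strand, in the order IFIT2, IFIT3, IFIT1 and IFIT5. IFIT1B, a family relative between IFIT3 and IFIT1, did not pass the expression filter. It had 6, 14 and 14 counts in the control libraries and 0 in each EZH2 shRNA library. IFIT6P, a pseudogene in the cluster, had 1 count in all. IFIT1P1, a processed pseudogene on chromosome 13 that may share IFIT1 reads, went the other way with 3, 6 and 5 counts against 7, 8 and 13, too few to be tested. OASL2P had 0 counts.

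LIPA, the lysosomal acid lipase gene, spans most of the IFIT cluster on the minus strand. Its start lies 10 bases before the start of IFIT5, which runs the other way. LIPA was at 69.9, 70.0 and 74.1 CPM in controls and 70.0, 62.5 and 65.2 CPM with EZH2 shRNA, and the groups overlapped (log2 fold change -0.11, SE 0.05, edgeR adjusted p = 0.0624). The library kit keeps strand, but the strand setting of the counting is not given in the sources used here. In GENCODE v44, whose release may differ from that used for the counts, exons of LIPA share 0 bases with IFIT1 exons, 65 bases (1.5%) with IFIT2 exons and 94 bases (1.86%) with IFIT3 exons. IFIT5 and OASL overlap no other gene there. AL353751.1, which shares 524 exon bases with IFIT2 on the same strand, had 0 counts. AC004551.1, which lies on the minus strand of the OAS cluster and shares 222 exon bases (1.7%) with OAS1, had 1 count in all 6 libraries.

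No tested gene around a cluster fell as far as the members of that cluster. Within 1 Mb of the IFIT cluster 10 other genes were tested, 5 lower, 2 higher and 3 without a call, with a median of -0.39 against -0.03 for all 633 genes tested on chromosome 10. ANKRD22 was the lowest of them, from 16.7 to 6.34 CPM (-1.39), and the nearest on the far side, PANK1, a pantothenate kinase, was at -0.22. KIF20B, a mitotic kinesin, was at -0.59 and STAMBPL1, a deubiquitinase, at -0.56, while FAS, the death receptor, was at 0.46 and ACTA2 at 1.57. Around OAS1, OAS3 and OAS2 there were 17 tested genes, 2 lower and 5 higher, between -0.23 and 0.68 with a median of 0.11. Around OASL there were 41, of which 6 were lower and 12 higher, between -1.95 and 2.15 with a median of 0.08. The median over the 920 genes tested on chromosome 12 was 0.00. Genes called lower made up 26.1% of those tested on chromosome 10 and 25.3% of those tested on chromosome 12. Over all chromosomes, 23.8% of the genes tested were called higher.

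**Figure D3:**
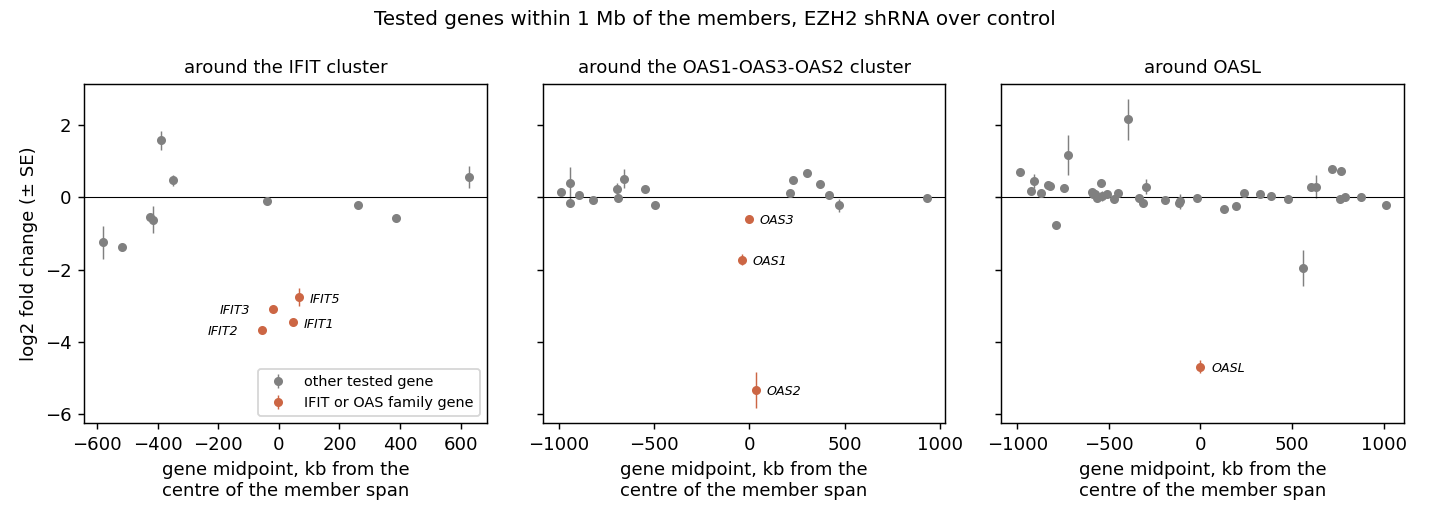
Log2 fold change of EZH2 shRNA over control with its SE, by distance of each gene's midpoint from the centre of the member span in kb, for tested genes within 1 Mb of the IFIT cluster, the OAS1, OAS3 and OAS2 cluster, and OASL. Members are orange and other genes grey. Members reach -3.66, -5.32 and -4.69, while the other genes do not fall below -1.39, -0.23 and -1.95 in the 3 panels.

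Of the genes upstream, the interferon ligands were barely detected. Of 22 ligand genes 5 had any count, 17 counts in all in controls and 3 with EZH2 shRNA, and none was tested. IFNB1, interferon beta, had 3, 5 and 3 counts in control libraries and 3, 0 and 0 in EZH2 shRNA libraries. In CPM the lowest control value (0.0707, library 5) was above the highest EZH2 shRNA value (0.0603, library 1). Both values are 3 counts, so this separation comes only from library depth. Among all genes tested, 27.0% separated in this direction. The IFNB1 count per total was 5.2-fold lower with an exact 95% counting interval of 1.37 to 29.0, which rests on 11 counts against 3. Of 8 measured receptor and kinase genes 3 were lower and 0 higher. Beside this count and those of the lists below stand the shares over all genes tested, 22.9% lower and 23.8% higher. IFNAR1, a chain of the type I interferon receptor, fell from 59.3 to 49.4 CPM (-0.27, edgeR adjusted p = 0.000208) and the kinase gene JAK1 by 0.11 on the log2 scale. IFNAR2, the other chain, was at -0.05 (edgeR adjusted p = 0.69) and the kinase gene TYK2 at 0.10 (0.0888). IFNGR1, a chain of the interferon gamma receptor, was at -0.36.

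IRF9 and STAT2, which belong to the complex known to activate both families, were lower. IRF9, its DNA-binding subunit, had 4.68, 5.56 and 6.79 CPM in controls and 1.49, 1.46 and 1.46 CPM with EZH2 shRNA (log2 fold change -1.95, SE 0.15, edgeR adjusted p = 2.07e-08). STAT2 went from 43.1 to 24.6 CPM (-0.81). IRF7, which amplifies interferon production, was at -1.59 (21.2 to 7.06 CPM). Among 12 measured STAT and IRF genes 7 were lower and 5 higher, with a median of -0.30. STAT5A at 1.10 and STAT5B at 0.49, which serve cytokine receptors, were among the higher ones.

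Neither of the genes ABCE1 and PDE12, listed with the OAS enzymes, passed the test. ABCE1, a ribosome recycling factor, was at -0.04 (edgeR adjusted p = 0.426) and PDE12, which degrades oligoadenylates, at -0.05 (0.475). Of 7 measured genes of cap synthesis and cap or eIF3 binding, EIF3E, a subunit of the eIF3 complex that IFIT proteins bind, was at 0.24, EIF3C, another subunit, at -0.17 and the capping enzyme RNGTT at -0.20. The cap methyltransferases CMTR1, CMTR2 and RNMT and the cap-binding EIF4E did not pass the test (-0.11, 0.08, 0.03 and 0.12).

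Sensors that share the interferon response were lower too. Of 17 measured sensor and adaptor genes 12 were lower and 4 higher, with a median of -0.40. The RNA helicase sensors DHX58, IFIH1 and DDX58 (RIG-I) were at -1.55, -1.52 and -1.17, EIF2AK2, the RNA-activated kinase PKR, at -1.12, and SAMHD1, a deoxynucleotide hydrolase, at -0.69, while the adaptor gene TRAF3 was at 0.40. Negative regulators went both ways, 6 lower and 4 higher of 14, with the ubiquitin-like ISG15 at -1.65, its protease USP18 at -1.14, the STAT inhibitor PIAS3 at -0.46 and the phosphatase PTPN11 at -0.23, and with IRF2BP2 at 0.43 and CISH at 0.41.

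Of 53 other measured interferon-stimulated genes, listed with earlier results of these data known, 49 were lower, 1 higher and 3 without a call. Their median of -1.05 compares with -3.27 over the IFIT and OAS members. The list shares IRF7 and IRF9, among others, with the STAT and IRF list, EIF2AK2 and IFI16 with the sensors, and ISG15 and USP18 with the negative regulators. Among the lowest p-values in it were those of EIF2AK2, TRIM22 (-1.95), UBE2L6 (-1.91), ISG15 and SAMD9L (-1.61). Named after their values were seen, IFI44 at -4.33 and CXCL11 at -3.49 were the 2 of the 53 below the members' median. CXCL11, an interferon-induced chemokine, had 65, 94 and 69 counts in controls and 7, 8 and 13 with EZH2 shRNA. Like OAS2, both IFI44 and CXCL11 passed the expression filter through the control libraries alone. Also named after their values were seen, LY6E was the gene that rose (0.50), and MX1, LGALS3BP and PML did not pass (-0.86, 0.05 and -0.03). OAS3 fell by less than most of this list, with 20 of the 53 above its value.

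**Figure D4:**
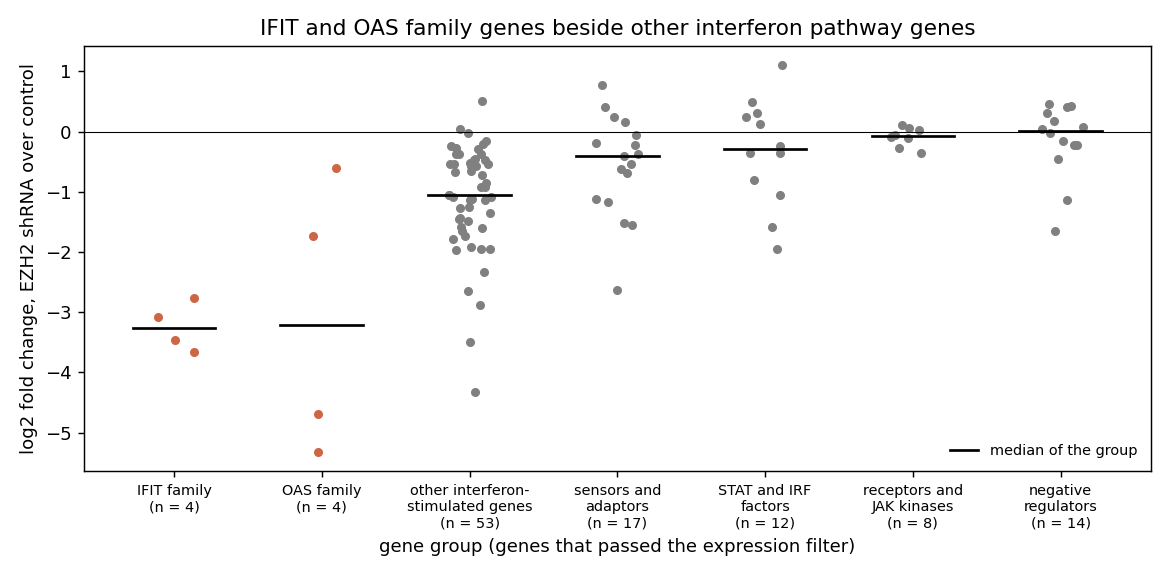
Log2 fold change of EZH2 shRNA over control for each tested gene, with the IFIT and OAS families in orange, 5 other interferon pathway groups in grey, and black lines for medians. The IFIT genes sit between -3.66 and -2.77 and the OAS family between -5.32 and -0.60, while the medians of the other groups run from -1.05 to 0.00.

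The profile of the 8 genes over the 6 libraries follows the group difference, so a high likeness to it was common. Of 13412 other genes with at least 1 CPM, 1861 had a Pearson correlation of at least 0.95 with the mean standardised log2 CPM of the members over 6 libraries. The 5 highest were PIM1, UCP2, MPZL3, FAM76B and NCAPD3, with log2 fold changes of -1.30, -1.66, -2.16, -0.46 and -0.50. Within groups the members shared no common direction: over their 28 pairs, the correlation of deviations from the group means ranged from -0.99 to 0.93 with a median of -0.06. The genes nearest to the members' mean deviation, FBXO33, AL122018.1, AC107954.1, ZNF768 and PCBP2, had log2 fold changes of 0.08, 0.04, -0.26, 0.32 and -0.10. These likenesses rest on 6 libraries and are descriptions.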

How the data were processed

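Polyadenylated RNA of 6 libraries was read as single reads of 50 bases. The authors deposited raw counts per gene without normalization and FPKM values. In 19251 of 19251 genes with counts in every library the FPKM were rescaled counts within 0.001. Per the submitters' processing notes the build was GRCh38, and DESeq2 1.24.0, Picard 2.18.24, STAR 2.5.2b and R 3.6.1 were used. How reads were counted, with which annotation and which strand setting, is not given in the sources used here. Of 58884 gene IDs 58472 were in the reference names.

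Here, edgeR 4.0.16 (R 4.3.3) was run on all 6 libraries with TMM factors, filterByExpr defaults, robust quasi-likelihood dispersions and group as the only term. Benjamini-Hochberg adjustment covered the 16859 genes tested, and the threshold was 0.05. Each SE was the fold change divided by the root of its F value. Differences between members used exact permutation tests (scipy 1.17.1) with adjustment over 13 comparisons. No 2 libraries of a group were alike within counting noise (chi-square per degree of freedom 3.18 to 17.3). A floor of 3 counts equals 0.0353 to 0.0759 CPM.

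The members, the lists and the rule for named genes (all members, their overlapping and neighbouring genes, family relatives, fixed signalling genes, and up to 6 genes per list by p) were chosen with earlier results of these data known. Alternatives were other scalings and filters, DESeq2 1.42.0, limma 3.58.1 on log2 FPKM, leaving out each library, and the title number as a block. Some genes of these lists and neighbourhoods are counted but not reported by name here.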

Additional observations from a re-analysis of the deposited data

How the results depend on the processing

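All 8 members were called lower in each of 16 alternatives: 3 other scalings, 2 other filters, DESeq2, 3 limma fits on FPKM, the replicate block and 6 fits without 1 library. On counts the log2 fold change of OAS3 stayed between -0.64 and -0.54, that of IFIT2 between -3.69 and -3.63 and that of OASL between -4.76 and -4.64, while OAS2 ranged from -7.16 to -4.52. On log2 FPKM with a pseudocount of 0.1 or 1, which shrinks weak genes, OASL ranged from -3.46 to -1.35, OAS1 from -1.39 to -0.52, OAS2 from -1.60 to -0.28 and IFIT5 from -1.76 to -0.45. The largest adjusted p of any member was 0.0028, for OAS3 with unfiltered FPKM. Genes called lower by at least 2-fold among all tested numbered 367, but 218 with a filter of 1 CPM in 3 libraries, 207 on log2(FPKM + 0.1), 43 on log2(FPKM + 1) and 42 on unfiltered log2(FPKM + 1). The FPKM fits changed the tool, the unit and the offset together, and the cause of these moves was not tested. The mean IFIT fold change minus the mean of the OAS family was -0.39, and -0.11 with a prior count of 0.5 and -1.14 on log2(FPKM + 0.1). OAS1 minus OAS2 went from 2.75 to 3.80 and 0.21 under the same 2 settings, and OAS2 minus OAS3 from -3.84 to -4.92 and -1.01. On log2(FPKM + 0.1) OAS1 minus OAS3 was -0.80, OAS1 minus OASL 2.08 and OAS3 minus OASL 2.88. With the title number as a replicate block 8 members and 3863 genes were called lower. Control library 5 and EZH2 shRNA library 1 stand alone in their blocks, so that contrast rests on libraries 3 and 4 of each group. Libraries numbered 3 and 4 in both groups share only a number, with deviations that correlate at 0.036 and 0.012. Other interferon-stimulated genes called lower numbered 47 to 50. OAS2 and IFIT5 are limited by their low counts.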
